A study of Vitis vinifera with 36 samples.

Results

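A set of 12 genes was read in every group of ‘Muscat Hamburg’ berries and was next to unread in every group of ‘Victoria’ berries. The members were chosen by their own FPKM values (reads per length of the transcript, scaled to the depth of each library). The mean of the 3 replicates had to reach at least 1 FPKM in all 6 ‘Muscat Hamburg’ groups and stay under 0.1 FPKM in all 6 ‘Victoria’ groups. Of 28119 genes listed in any library, 12 met both conditions. The rule left out identifiers at known colour genes, but 0 of the 272 listed identifiers left out in this way met both conditions. The difference between the varieties is therefore how the genes were selected and is given as a description without a test.

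RNA-seq libraries of de-seeded berries came from 2 varieties of Vitis vinifera, grafted on SO4 rootstock and cropped in 2 growing seasons of the 2014 vintage in South China, with the winter crop following the summer crop on the same vines. ‘Muscat Hamburg’ is a black table grape with Muscat flavour and ‘Victoria’ a white table grape. The ‘Muscat Hamburg’ groups were winter season berries and summer season berries, each at the onset of veraison (E-L 35 of the Eichhorn-Lorenz scale), at complete veraison (E-L 36) and at harvest (E-L 38). The ‘Victoria’ groups were sampled in the same seasons and stages, with 3 replicates in each of the 12 groups and 36 libraries in all. Each replicate was a pool of 50 berries, so the spread below is that between pools of 1 crop and does not cover the spread between years or vineyards.

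The mapped reads were counted on gene models of the grapevine 12X V2 genome, which was built from another, nearly homozygous line. Grape varieties are kept by cuttings and are highly heterozygous, and they are known to differ in gene content and in the sequence of their gene copies. A gene can thus be read in one variety and not in another because it is not transcribed, because its copy is missing, or because its copy differs so much from the reference that reads are not placed. Reads were 50 bases long and were placed with at most 2 mismatches, and these situations cannot be told apart in the counts. In bulk berries, fewer cells of a type and less RNA per cell cannot be told apart either. No name, protein or promoter could be attached to the 12 identifiers, so they are described by identifier, level and position in the identifier order.

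Estimated counts summed over the genes of a library ran from 8607368 to 14008346 in ‘Muscat Hamburg’ and 5624449 to 18606068 in ‘Victoria’. All 36 libraries were most like another library of their own variety and 33 most like one of their own group. The exception in ‘Muscat Hamburg’ was replicate 1 of the summer season at E-L 36, which stood closest to the summer season at E-L 38. Seed and flesh markers could not be looked up, but 2 flavonoid genes that the study names were read in every library. UFGT (VIT_216s0039g02230), which adds the sugar that makes anthocyanins stable, had 18.8 to 74.96 FPKM in ‘Muscat Hamburg’ libraries and 6.35 to 12.99 FPKM in ‘Victoria’ libraries. The paper describes UFGT as expressed in ‘Muscat Hamburg’ alone, which differs from these ‘Victoria’ values. LDOX (VIT_202s0025g04720), the enzyme a step earlier, had 45.83 to 284.13 FPKM in ‘Muscat Hamburg’ and 6.97 to 147.43 FPKM in ‘Victoria’, so the ‘Victoria’ libraries held berry RNA of the same pathway.

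The 12 genes had mean levels of 1.58 to 17.9 FPKM over the 18 ‘Muscat Hamburg’ libraries, an 11.4-fold range with a median of 3.01 FPKM. Most were low, as 9 of 12 averaged under 5 FPKM, against 24.3% of the 14247 genes that reached 1 FPKM in all 6 ‘Muscat Hamburg’ groups. The highest was VIT_200s0346g00050 with 17.9 FPKM, a gene model of 147 bases whose level rested on 9.78 to 38.17 counts a library. VIT_200s0279g00030 averaged 7.15 FPKM and VIT_214s0036g00080 6.97 FPKM. Between 2 and 4 FPKM lay VIT_212s0034g02450 with 3.51 FPKM, VIT_213s0074g00170 with 3.18 FPKM, VIT_200s2776g00010 with 3.06 FPKM, VIT_200s0524g00020 with 2.95 FPKM, VIT_200s0286g00100 with 2.79 FPKM, VIT_211s0206g00020 with 2.54 FPKM and VIT_207s0005g04980 with 2.23 FPKM. The lowest were VIT_219s0176g00060 with 1.98 FPKM and VIT_219s0176g00050 with 1.58 FPKM. The libraries of these 9 lower genes overlapped widely, whereas the lowest library of VIT_200s0346g00050 (8.47 FPKM) was above the highest library of every one of the 9.

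No member was at 0 in any ‘Muscat Hamburg’ library. The lowest value was 0.47 FPKM (2.07 counts) of VIT_200s0524g00020 in replicate 3 of the winter season at E-L 38, and the highest ‘Victoria’ value of any member was 0.25 FPKM. Each gene's ‘Muscat Hamburg’ libraries thus lay above its ‘Victoria’ libraries, which the rule itself favours. Summed over the 12 genes and the 18 libraries of a variety, the estimated counts were 5908.29 in ‘Muscat Hamburg’ and 23.47 in ‘Victoria’. A single ‘Muscat Hamburg’ library held 223.2 to 457.87 counts on the 12 genes and a single ‘Victoria’ library 0 to 4.19.

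**Figure D1:**
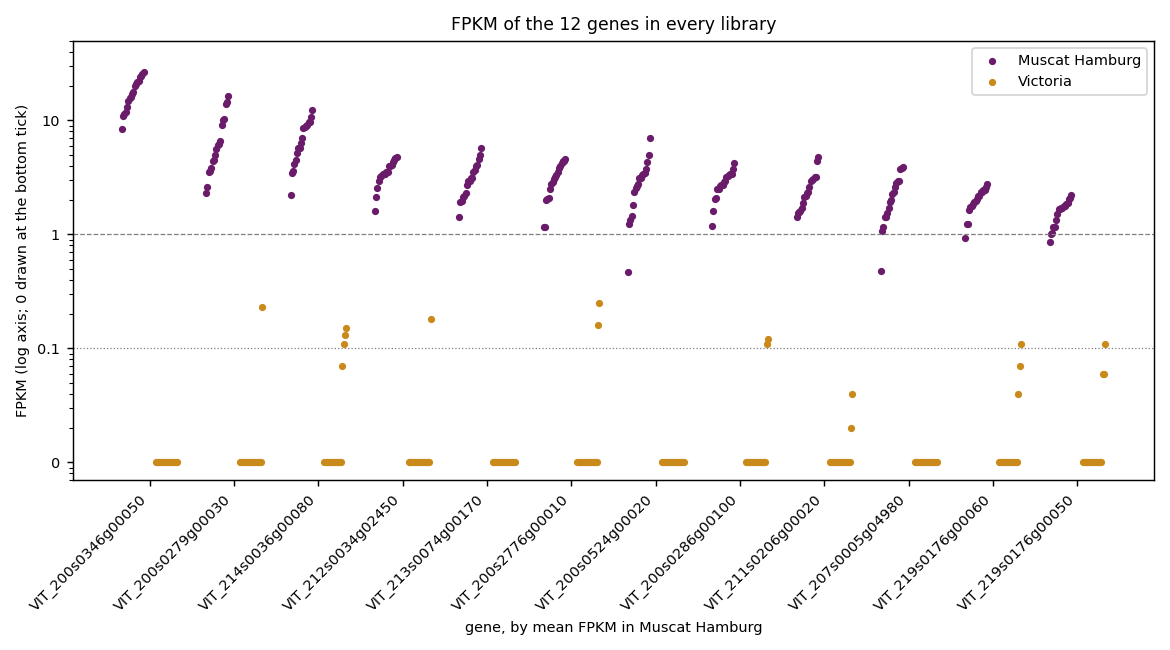
FPKM (log axis, values of 0 drawn at the bottom tick) of the 12 genes in each of the 18 ‘Muscat Hamburg’ libraries (left of each pair) and the 18 ‘Victoria’ libraries (right), sorted within each gene. The dashed and dotted lines mark the 1 and 0.1 FPKM of the selection rule, which applied to group means. The lowest ‘Muscat Hamburg’ value was 0.47 FPKM and the highest ‘Victoria’ value 0.25 FPKM.

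In ‘Victoria’, 4 of the 12 genes had no count in any of the 18 libraries, which together held 192539931 counts. Taking 3 counts over the 18 libraries as the limit that a count of 0 allows, VIT_200s0346g00050 was at least 131.4-fold higher in ‘Muscat Hamburg’ relative to the library totals. On the same footing, VIT_213s0074g00170 was at least 89.5-fold higher, VIT_207s0005g04980 at least 83.1-fold higher and VIT_200s0524g00020 at least 74.1-fold higher. These bounds allow for counting error in ‘Victoria’ alone and describe the selection. They leave out counting error in ‘Muscat Hamburg’, the spread between pools and any division of reads between genes.

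The other 8 genes had traces in ‘Victoria’, as 18 of the 216 values of a gene in a library were above 0, with at most 3.19 counts each. Those 18 values fell in 10 of the 18 libraries, 3 of the winter season and 7 of the summer season, with 6.14 counts in the winter season and 17.33 in the summer season. By replicate number, 12.89 counts (10 values) fell in the 6 libraries numbered 1, 7.74 (5 values) in those numbered 2 and 2.84 (3 values) in those numbered 3. The totals of these libraries were 68832114 counts for number 1, 60895520 for number 2 and 62812297 for number 3. VIT_214s0036g00080 had the most ‘Victoria’ libraries with a count, and all 4 of them were numbered 1. Whether these traces are transcripts of ‘Victoria’ berries was not tested.

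Around the thresholds the values were close together. Just inside the ‘Muscat Hamburg’ limit, the lowest group means were 1.02 FPKM for VIT_207s0005g04980, 1.07 FPKM for VIT_219s0176g00050 and 1.41 FPKM for VIT_219s0176g00060. Just outside it were VIT_215s0048g02332 with 0.993 FPKM, VIT_219s0027g01150 with 0.807 FPKM and VIT_201s0010g02285 with 0.760 FPKM. Just inside the ‘Victoria’ limit, the highest group means were 0.083 FPKM for VIT_200s2776g00010 and 0.077 FPKM for both VIT_200s0279g00030 and VIT_200s0286g00100. Just outside it were VIT_215s0048g00480 with 0.140 FPKM, VIT_214s0066g00170 with 0.153 FPKM and VIT_200s0414g00060 with 0.173 FPKM.

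Further features of the 12 genes were read from their models and identifiers. All 12 were single-transcript gene models, against 53.5% of the 14247 genes read in all ‘Muscat Hamburg’ groups. They were short, with a median length of 711.5 bases (147 to 1683), against a median of 1858 bases, although length enters FPKM and so is not independent of the rule. The identifiers of 5 of 12 carried the field 00, which is used for sequence not placed on a chromosome, against 6.95% of the 14247 genes, and the other 7 carried the fields 7, 11, 12, 13, 14 and 19. These shares are descriptions of a small list without a test.

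The estimated counts of most members were not whole numbers. Such counts arise when a program divides reads that fit more than 1 gene, so the levels of these genes depend on how reads were divided. At least 16 of the 18 ‘Muscat Hamburg’ libraries held a count that was not whole for 11 of the 12 genes, against 16.7% of the 14247 genes. The exception was VIT_200s0286g00100, whose 18 counts of 12 to 41 were all whole, as for 72.8% of the 14247 genes. By the same thresholds the other way round, 13 genes were read in ‘Victoria’ alone, and 8 of these 13 had counts that were not whole in at least 16 of the 18 ‘Victoria’ libraries. Of the 13, 12 were single-transcript models and 3 carried the field 00, and their median length was 491 bases.

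By their identifiers the 12 genes were scattered. They lay on 11 scaffold fields (the part of the identifier between the chromosome field and the gene number), and a single pair, VIT_219s0176g00050 and VIT_219s0176g00060, stood next to each other in the listed order. VIT_200s2776g00010 was the one listed gene of its scaffold field. Around the other 11 genes there were 19 different direct neighbours that were not members, of which 8 averaged at least 1 FPKM in a variety. Of these 8, 6 were within 2-fold between the varieties and 2 were at least 10-fold higher in ‘Muscat Hamburg’, against 1.11% (196 of 17648) of all genes at 1 FPKM or more in a variety. Positions come from the identifiers and not from coordinates.

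VIT_200s0524g00020, VIT_207s0005g04980 and VIT_213s0074g00170 stood alone in their variety pattern among their direct neighbours. All 6 expressed neighbours within 2-fold flanked these genes, so that count does not describe the other members. VIT_200s0524g00020 (2.95 FPKM in ‘Muscat Hamburg’ and 0 in ‘Victoria’) lay between VIT_200s0524g00010 with 81.3 and 76.4 FPKM and VIT_200s0524g00030 with 81.5 and 72.9 FPKM in ‘Muscat Hamburg’ and ‘Victoria’. VIT_207s0005g04980 lay beside VIT_207s0005g04970 with 66.4 FPKM in ‘Muscat Hamburg’ and 63.9 FPKM in ‘Victoria’, and VIT_213s0074g00170 beside VIT_213s0074g00190 with 14.5 FPKM in ‘Muscat Hamburg’ and 9.86 FPKM in ‘Victoria’. The genes on either side of these members were thus read at similar levels in both varieties.

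The 2 expressed neighbours at least 10-fold higher in ‘Muscat Hamburg’ flanked VIT_214s0036g00080 and VIT_200s0279g00030. VIT_214s0036g00090 averaged 8.23 FPKM in ‘Muscat Hamburg’ and 0.070 FPKM in ‘Victoria’, and missed the rule with 0.187 FPKM in the ‘Victoria’ summer season at E-L 36. VIT_200s0279g00040 averaged 3.48 FPKM in ‘Muscat Hamburg’ and 0.096 FPKM in ‘Victoria’, and the next gene, VIT_200s0279g00050, 7.44 FPKM and 0.297 FPKM. These stretches of 2 and 3 listed genes were therefore read mainly in ‘Muscat Hamburg’, although the rule took 1 gene of each. Other neighbours were also higher in ‘Muscat Hamburg’ but averaged under 1 FPKM. Beside the member pair, VIT_219s0176g00090 had 0.367 FPKM in ‘Muscat Hamburg’ and 0.032 FPKM in ‘Victoria’. VIT_200s0346g00080, beside VIT_200s0346g00050, had 0.905 FPKM in ‘Muscat Hamburg’ and 0.096 FPKM in ‘Victoria’. Next to VIT_200s0286g00100, VIT_200s0286g00095 had 0.867 FPKM in ‘Muscat Hamburg’ and 0.166 FPKM in ‘Victoria’, and 1 place further VIT_200s0286g00090 had 0.729 FPKM and 0 FPKM. The list also held neighbours that were lower in ‘Muscat Hamburg’. Beside VIT_212s0034g02450, VIT_212s0034g02440 had 0.064 FPKM in ‘Muscat Hamburg’ and 0.194 FPKM in ‘Victoria’, and VIT_212s0034g02470 had 0.295 FPKM and 0.782 FPKM. VIT_214s0036g00100, listed after VIT_214s0036g00090, had 1.12 FPKM in ‘Muscat Hamburg’ and 2.62 FPKM in ‘Victoria’. The count of 8 above took direct neighbours alone and left out those under 1 FPKM in each variety. The ‘Victoria’ reads of the VIT_200s0279 genes came mostly from the summer season at E-L 35, where VIT_200s0279g00050 had 1.42, 14.21 and 32.8 counts and VIT_200s0279g00040 had 0, 9.97 and 10.71 counts in replicates 1, 2 and 3, while VIT_200s0279g00030 had 1.1, 0 and 0 counts.

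**Figure D2:**
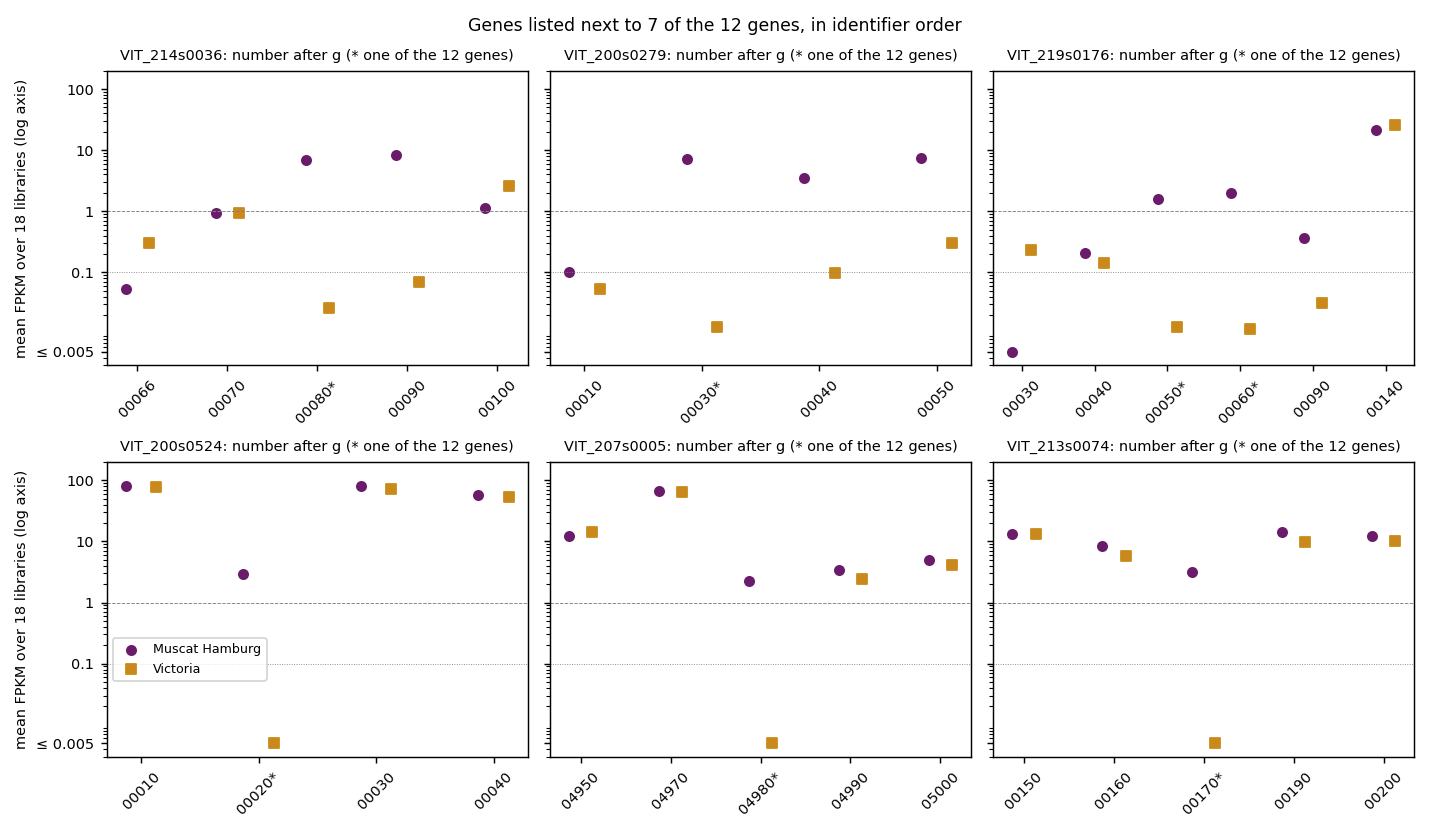
Mean FPKM (log axis) over the 18 ‘Muscat Hamburg’ libraries (circles, left) and the 18 ‘Victoria’ libraries (squares, right) of 7 of the 12 genes (marked with an asterisk) and the genes listed up to 2 places away, in identifier order and not to scale of distance. In the upper row VIT_214s0036g00090 (8.23 and 0.070 FPKM in ‘Muscat Hamburg’ and ‘Victoria’) and VIT_200s0279g00040 (3.48 and 0.096 FPKM) shared the pattern of the member beside them. In the lower row the neighbours were at similar levels in both varieties.

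Responses to season and stage within ‘Muscat Hamburg’ used none of the variety difference, although the rule's demand of 1 FPKM in every group keeps out genes that fell to near 0. All 12 genes passed the filter on low counts, among 19736 genes tested. A gene was called when the Benjamini-Hochberg adjusted p of edgeR's quasi-likelihood test was at most 0.05 and the fold change at least 2. Over 3 comparisons of the seasons and 2 of harvest with the onset of veraison, 5 of the 60 values were called, against 15.7% of the values of all genes tested. They fell in 4 of the 12 genes, while 40.1% of all genes tested were called in at least 1 of the 5 comparisons. The other 8 genes were called in none. The median absolute log2 fold change was not below that of all genes in every comparison. The median absolute log2 fold change of the 12 was 0.335 between the seasons at E-L 35, against 0.292 for all genes. For harvest in the summer season it was 0.526, against 0.392. It was below that of all genes at E-L 36 (0.392, against 0.468), at E-L 38 (0.332, against 0.498) and for harvest in the winter season (0.382, against 0.506). Noise adds to such medians, and most of the 12 genes were low. Their median SE was 0.382 at E-L 35 and 0.378 for harvest in the summer season. Larger changes than in all genes are therefore not read from these medians.

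**Figure D3:**
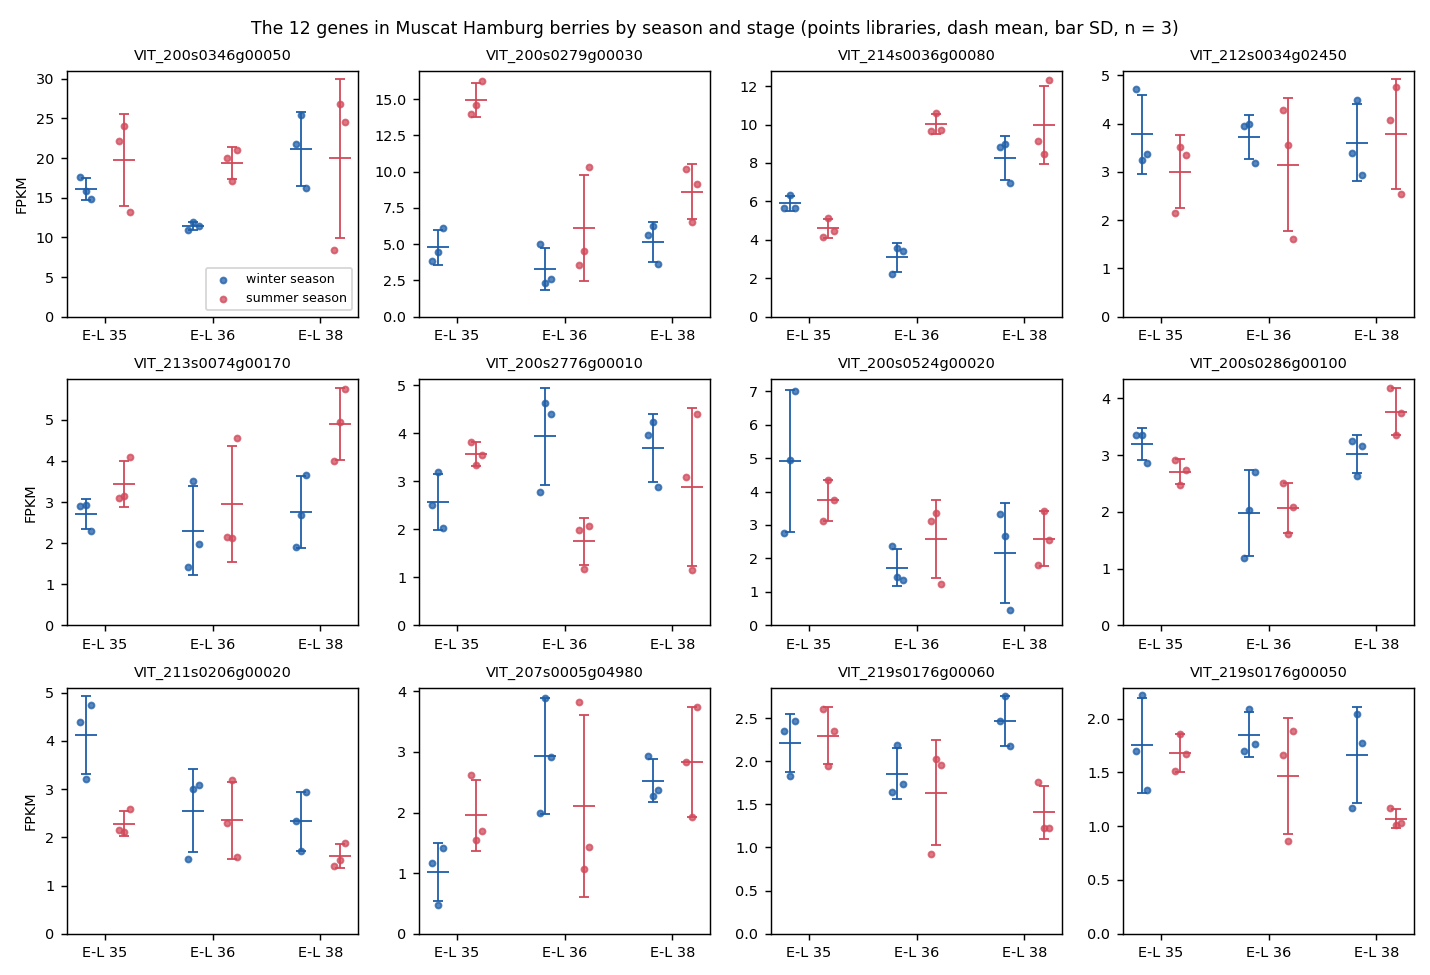
FPKM of the 12 genes in ‘Muscat Hamburg’ berries by E-L stage in the winter season (left of each pair) and the summer season (right). Points are libraries, dashes means and bars the SD (n = 3). The 2 seasons stand apart at E-L 35 for VIT_200s0279g00030 (3.81 to 6.13 and 13.96 to 16.24 FPKM in winter and summer) and at E-L 36 for VIT_214s0036g00080 (2.21 to 3.60 and 9.67 to 10.61 FPKM).

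At E-L 35, VIT_200s0279g00030 was lower in winter season berries and no member was called higher. It had 3.81, 4.44 and 6.13 FPKM in the winter season, against 13.96, 14.57 and 16.24 FPKM in the summer season. The seasons did not overlap, and the log2 fold change was −1.70 ± 0.39 (SE, n = 3 each, edgeR adjusted p = 0.00545). This made 0 of 12 called higher, against 4.15% of all genes tested, and 1 of 12 called lower, against 1.86%. At an unadjusted p under 0.05, 1 gene was higher and 1 lower, and DESeq2 likewise called 0 higher and 1 lower. Over all 28119 listed genes, DESeq2 called 871 higher and 366 lower, while 7715 had no adjusted p and could not be called. Counts at an unadjusted p, here and below, are given without a share over all genes and are not read as results. The median log2 fold change of the 12 was −0.05, against 0.00 for all genes.

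VIT_211s0206g00020 was the member with the highest log2 fold change at this stage. Its libraries had 3.21, 4.39 and 4.75 FPKM in the winter season and 2.11, 2.16 and 2.58 FPKM in the summer season, which do not overlap. Its log2 fold change of 0.78 ± 0.37 did not pass the test (SE, n = 3 each, edgeR adjusted p = 0.154). VIT_207s0005g04980 had 0.48, 1.16 and 1.42 FPKM in the winter season and 1.54, 1.70 and 2.62 FPKM in the summer season, and did not pass either (log2 fold change −0.96 ± 0.53, edgeR adjusted p = 0.241).

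At E-L 36, 1 gene was called lower and 1 higher in the winter season berries. VIT_214s0036g00080 had 2.21, 3.44 and 3.60 FPKM in the winter season, against 9.67, 9.74 and 10.61 FPKM in the summer season. The seasons did not overlap, and the log2 fold change was −1.77 ± 0.28 (SE, n = 3 each, edgeR adjusted p = 2.05e-05). Without replicate 1 of the summer season, the library closest to the harvest stage, it was −1.79. The 1 of 12 called lower compares with 8.97% of all genes tested and the 1 of 12 called higher with 9.80%, so neither share stood out from the background.

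VIT_200s2776g00010, the gene alone on its scaffold field, was the one called higher at E-L 36. Its libraries had 2.78, 4.39 and 4.62 FPKM in the winter season, against 1.17, 1.99 and 2.07 FPKM in the summer season, without overlap. The log2 fold change was 1.13 ± 0.42 (SE, n = 3 each, edgeR adjusted p = 0.0356). This call rested on single libraries, as it was lost without replicate 1, 2 or 3 of the summer season (log2 fold changes of 1.24, 0.915 and 1.26) and without replicate 2 or 3 of the winter season (1.06 and 0.956).

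The other members at E-L 36 included 2 with lower values in the winter season that did not pass. VIT_200s0346g00050 had 10.93, 11.40 and 11.92 FPKM in the winter season and 17.05, 20.03 and 20.99 FPKM in the summer season, and its log2 fold change was −0.79 ± 0.38 (SE, n = 3 each, edgeR adjusted p = 0.109). VIT_200s0279g00030 had 2.30, 2.58 and 4.99 FPKM in the winter season and 3.54, 4.51 and 10.33 FPKM in the summer season (log2 fold change −0.95 ± 0.43, edgeR adjusted p = 0.0788). Its summer replicates 1 and 2 (3.54 and 4.51 FPKM) and winter replicate 1 (4.99 FPKM) lay within the range of the other season. Without summer replicate 1 or winter replicate 1 the gene was called lower (log2 fold changes of −1.22 and −1.32), which made 2 of 12 lower. Leaving out any of the other 4 libraries left it uncalled, with a log2 fold change as small as −0.37. For 6 of the 12 genes, the winter season at E-L 36 was the group with the lowest mean. This count is given without a share over all genes and is not read as a result. Of these 6 genes, only VIT_214s0036g00080 was called lower between the seasons at this stage.

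At E-L 38, no member was called between the seasons (0 of 12 higher, against 8.90% of all genes tested, and 0 of 12 lower, against 11.1%). DESeq2 and limma also called no member, while DESeq2 called 1852 of the 28119 listed genes higher and 2200 lower. Of the listed genes, 6085 had no adjusted p in DESeq2. At an unadjusted p under 0.05, 1 gene was higher and 0 were lower. That gene was VIT_219s0176g00060, with 2.18, 2.46 and 2.76 FPKM in the winter season and 1.23, 1.23 and 1.76 FPKM in the summer season. The seasons did not overlap, and its log2 fold change of 0.87 ± 0.33 had an adjusted p of 0.0346 in edgeR but stayed under 2-fold (SE, n = 3 each). Without replicate 1 of the summer season, at 1.76 FPKM, it was 1.04 and the gene was called.

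Its neighbour VIT_219s0176g00050 had values of the same order at harvest. Its libraries had 1.17, 1.77 and 2.04 FPKM in the winter season and 1.01, 1.03 and 1.17 FPKM in the summer season, and the lowest winter value equalled the highest summer value. The log2 fold change was 0.72 ± 0.39 (SE, n = 3 each, edgeR adjusted p = 0.139). VIT_213s0074g00170 lay the other way, with 1.91, 2.69 and 3.65 FPKM in the winter season and 4.00, 4.94 and 5.74 FPKM in the summer season, and did not pass (log2 fold change −0.78 ± 0.39, edgeR adjusted p = 0.114).

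From the onset of veraison to harvest in the winter season, 1 member was called. VIT_207s0005g04980 had 2.27, 2.37 and 2.93 FPKM at E-L 38, against 0.48, 1.16 and 1.42 FPKM at E-L 35. The stages did not overlap, and the log2 fold change was 1.40 ± 0.53 (SE, n = 3 each, edgeR adjusted p = 0.0397). The E-L 35 libraries held 3.05 to 8.70 counts, and the call was not made by DESeq2 (log2 fold change 1.41). It was also lost without replicate 1 or 2 of E-L 35 (1.50 and 1.04) and without replicate 1, 2 or 3 of E-L 38 (1.27, 1.50 and 1.45).

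The 1 of 12 called higher compares with 6.37% of all genes tested, and the 0 of 12 called lower with 13.9%. At an unadjusted p under 0.05, 2 members were higher and 0 lower, while DESeq2 called 0 and limma on log2(FPKM + 0.1) called 1 higher and 1 lower. Over all genes, DESeq2 called 1277 of 28119 higher and 2897 lower, with 5541 given no adjusted p. This limma fit called 1000 of 19736 higher and 3111 lower. The gene called lower by limma was VIT_200s0524g00020, with 0.47, 2.68 and 3.33 FPKM at E-L 38 and 2.77, 4.94 and 7.02 FPKM at E-L 35. These stages overlapped, and in edgeR its log2 fold change was −1.14 ± 0.54 (SE, n = 3 each, edgeR adjusted p = 0.0983). By sign, 10 of 12 members were higher at harvest, and 1 of them was called. The count by sign is given without a share over all genes and is not read as a result. The median log2 fold change of the 12 was 0.18, against 0.01 for all genes, and the median SE of the 12 was 0.393. In the summer season 6 of 12 were higher by sign and 6 lower.

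In the summer season VIT_214s0036g00080 was higher at harvest. It had 8.49, 9.14 and 12.30 FPKM at E-L 38, against 4.17, 4.47 and 5.13 FPKM at E-L 35, without overlap. The log2 fold change was 1.11 ± 0.27 (SE, n = 3 each, edgeR adjusted p = 0.00236), and 0.953 without replicate 3 of E-L 38, which takes it under 2-fold. The 1 of 12 called higher compares with 5.20% of all genes tested, and the 0 of 12 called lower with 8.06%. At an unadjusted p under 0.05, 1 member was higher and 2 were lower, and DESeq2 called 1 higher and 0 lower. Over all 28119 listed genes, DESeq2 called 1035 higher and 1658 lower, with 6085 given no adjusted p.

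The same gene in the winter season had 6.94, 8.81 and 9.01 FPKM at E-L 38 and 5.68, 5.68 and 6.34 FPKM at E-L 35. The stages did not overlap there either, but its log2 fold change of 0.59 ± 0.27 did not pass (SE, n = 3 each, edgeR adjusted p = 0.0789). A difference of the change to harvest between the seasons was called for no member, as the winter change less the summer change passed for 0 of 12, against 13.9% of all genes tested in either direction. At an unadjusted p under 0.05 it was higher for 1 member and lower for 0, and DESeq2 and limma called none. Over all 28119 listed genes, DESeq2 called it higher for 1036 and lower for 1811, with 7173 given no adjusted p.

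**Figure D4:**
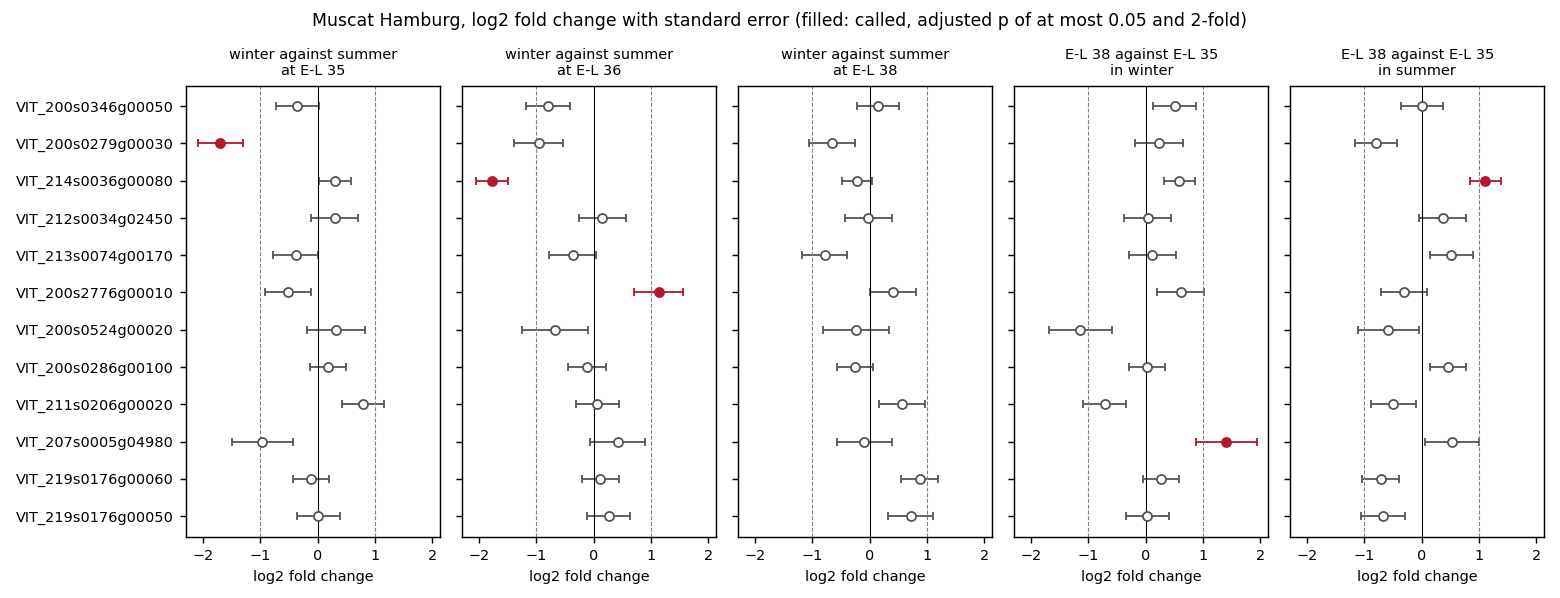
Log2 fold change with its standard error (n = 3 each, edgeR) of the 12 genes, from the highest mean level at the top to the lowest, in 5 comparisons within ‘Muscat Hamburg’. Positive values are higher in the winter season (first 3 panels) or at E-L 38 (last 2), dashed lines mark 2-fold, and filled points are the 5 called values. Most values lie within 2-fold, as 11 of 12 do at E-L 35 between the seasons.

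The season response of VIT_214s0036g00080 depended on the stage. Its winter season means were 5.90 ± 0.38, 3.08 ± 0.76 and 8.25 ± 1.14 FPKM at the 3 stages from E-L 35 onward, and its summer season means 4.59 ± 0.49, 10.0 ± 0.52 and 9.98 ± 2.04 FPKM (SD, n = 3). The winter berries were thus lowest at E-L 36, while the summer berries had similar values at E-L 36 and E-L 38. The season difference at E-L 36 less that at E-L 35, a contrast added after these values had been seen, was −2.07 ± 0.39 on the log2 scale (SE, n = 3 each, edgeR adjusted p = 0.000488).

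The same contrast was called upward for VIT_200s2776g00010 (1.65 ± 0.59, SE, n = 3 each, edgeR adjusted p = 0.0479). Its winter season means were 2.57 ± 0.58, 3.93 ± 1.00 and 3.68 ± 0.71 FPKM at the 3 stages in order, and its summer season means 3.56 ± 0.24, 1.74 ± 0.50 and 2.88 ± 1.64 FPKM (SD, n = 3). The 2 genes made 2 of 12 called in either direction, against 11.6% of all genes tested. With the replicate number as a block (replicate block), the value of VIT_200s2776g00010 was 1.64 and no longer called, which left 1 of 12. The call was also lost with any 1 of the 12 libraries of the contrast left out (1.43 to 1.85) except replicate 1 of the winter season at E-L 36 (1.87).

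The neighbour VIT_214s0036g00090, whose counts were all whole numbers, had the same order of groups as VIT_214s0036g00080 at E-L 36. It had 2.16, 2.96 and 4.97 FPKM in the winter season, against 12.46, 15.10 and 15.77 FPKM in the summer season, and was called lower (log2 fold change −2.17 ± 0.38, SE, n = 3 each, edgeR adjusted p = 8.5e-05). Its season difference at E-L 36 less that at E-L 35 was −2.75 ± 0.54 (edgeR adjusted p = 0.000769). At harvest in the summer season it had 6.63, 11.43 and 15.36 FPKM, against 3.85, 4.36 and 5.06 FPKM at E-L 35 (log2 fold change 1.32 ± 0.37, edgeR adjusted p = 0.00759), a call lost without replicate 3 of E-L 38 (1.03). This gene was set beside the member after its values had been seen.

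The next 2 genes listed after VIT_200s0279g00030 were not called between the seasons at E-L 35. VIT_200s0279g00040 had 2.58, 3.69 and 3.85 FPKM in the winter season and 2.36, 3.36 and 5.37 FPKM in the summer season, which overlap (log2 fold change −0.20 ± 0.52, edgeR adjusted p = 0.837). VIT_200s0279g00050 had 3.66, 5.88 and 6.47 FPKM in the winter season and 8.24, 8.58 and 10.69 FPKM in the summer season, without overlap, and its log2 fold change of −0.83 ± 0.45 did not pass (SE, n = 3 each, edgeR adjusted p = 0.221).

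**Figure D5:**
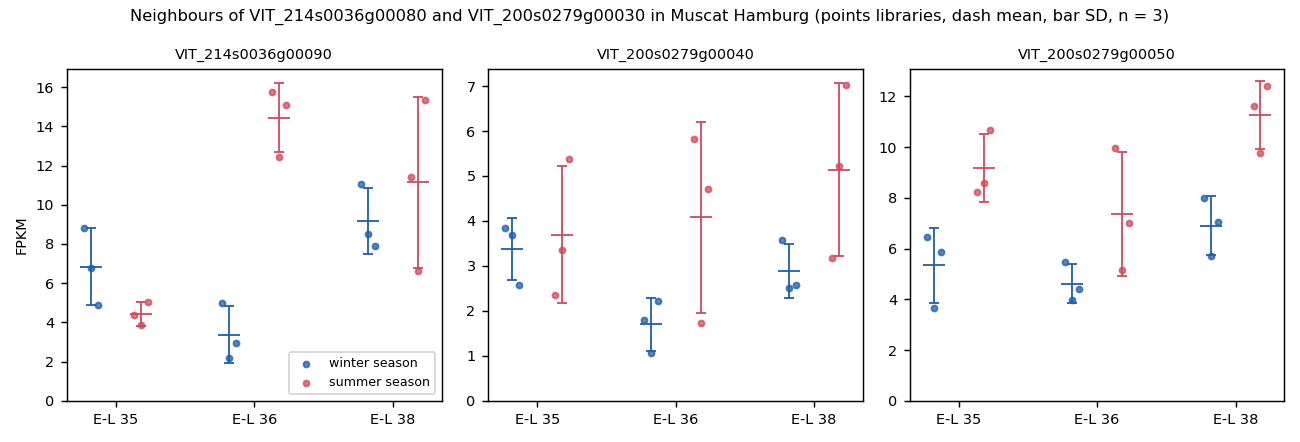
FPKM in ‘Muscat Hamburg’ berries of 3 genes listed beside VIT_214s0036g00080 and VIT_200s0279g00030, by stage, with the winter season left of the summer season. Points are libraries, dashes means and bars the SD (n = 3). VIT_214s0036g00090 had 2.16 to 4.97 FPKM in the winter season and 12.46 to 15.77 FPKM in the summer season at E-L 36, whereas the seasons overlapped at E-L 35 for VIT_200s0279g00040.

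The steadiest member was VIT_212s0034g02450, whose 6 group means differed by 1.26-fold at most, with single libraries of 1.61 to 4.77 FPKM. VIT_200s0286g00100, the gene with whole counts, had group means of 1.98 to 3.76 FPKM. In all, the highest and lowest group means differed by less than 2-fold for 5 of the 12 genes and by 4.54-fold for VIT_200s0279g00030, the widest. No member was called in the same direction between the seasons at all 3 stages (0 of 12, against 1.92% of all genes tested). By sign, 2 of 12 were lower in the winter season at every stage, against 24.3% of all genes tested, and 2 of 12 higher, against 23.6%.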

How the data were processed

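RNA of de-seeded berries (‘Muscat Hamburg’ and ‘Victoria’, 2 seasons, 3 stages, 3 replicates, 36 libraries) was sequenced by the authors as single reads and aligned to the grapevine 12X V2 genome (Bowtie, per the submitters' processing notes). The deposited lists give an expected count per gene, the authors' estimate of the reads on it, unnormalized. They also give FPKM computed by the authors and a length in bases. FPKM was used as given and was not recomputed from that length. Genes missing from a list were set to 0. A further table had 36 columns matching no label, which were not used.

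After rounding of the expected counts to whole numbers, all libraries were fitted by edgeR 4.0.16 (R 4.3.3) with filterByExpr, TMM and quasi-likelihood over 12 groups (common dispersion 0.0294). SEs were |log2 fold change| over the root of F. Alternatives were DESeq2 1.42.0, limma 3.58.1 on log2(FPKM + 1) and log2(FPKM + 0.1), other scalings and filters, ‘Muscat Hamburg’ libraries alone, a replicate block and each library left out. The steps were tested on simulated data.

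The members, lists and tests were chosen with earlier results of these data known. As there were fewer than 30 members, all were named. Annotation classes and tissue markers could not be applied, since 0 of the identifiers matched the 29591 genes of the reference table.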

Additional observations from a re-analysis of the deposited data

Results flagged for a closer look

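The season difference of VIT_214s0036g00080 changed between stages, with a value of −2.07 for E-L 36 less E-L 35 on the log2 scale. For VIT_200s2776g00010 the same value was 1.65. Both differences were tested as interactions in the edgeR fit, with adjusted p-values of 0.000488 and 0.0479. This contrast was added after the group values of VIT_214s0036g00080 had been seen, so these p-values describe a pattern already picked. The alternatives below use the same libraries and do not lift that limit. Over 21 alternatives, VIT_214s0036g00080 was called in 21 (adjusted p 8.94e-08 to 0.00277) and VIT_200s2776g00010 in 6 (adjusted p 0.00368 to 0.113).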

How the results depend on the processing

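With a minimum of 0.5 FPKM in ‘Muscat Hamburg’ the rule gave 21 genes (all 12 among them), with 2 FPKM 5, and with no count in any ‘Victoria’ library 4. Limits of 0.05 and 0.2 FPKM in ‘Victoria’ gave 8 and 18, and medians in place of means 16, of which 11 were members. The 2 genes beside another member stayed 2 with 1 or 4 listed genes allowed between.

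Members called between the seasons at E-L 35 were 0, against 1, with at least 10 counts in every ‘Muscat Hamburg’ library, which left the called gene and 4 others untested. At E-L 36, limma on log2(FPKM + 1) called 1, against 2. For harvest against E-L 35 in the winter season, DESeq2, library size alone, no filter, the 10-count minimum and limma on log2(FPKM + 1) called 0 and limma on log2(FPKM + 0.1) called 2, against 1. In the summer season limma on log2(FPKM + 1) called 0, against 1. For the season difference at E-L 36 less E-L 35, library size alone, no filter and the replicate block called 1, against 2. With 1 library left out, the counts ran from 1 to 1 between the seasons at E-L 35, from 1 to 3 at E-L 36 and from 0 to 1 at E-L 38. They ran from 0 to 1 for harvest in either season and from 1 to 2 for E-L 36 less E-L 35. The winter change to harvest less the summer change was called for 0 members throughout. Of the log2 fold changes recomputed for the called genes, the neighbour VIT_214s0036g00090, VIT_200s0524g00020 and VIT_219s0176g00060, none changed sign.

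Replicate numbers did not pair the ‘Muscat Hamburg’ libraries (15 correlations of deviations, −0.061 to 0.067), and the replicate block changed no other count of calls. The ‘Victoria’ libraries were not checked for such pairing. Causes were not tested. Depth limits some of these genes, as 5 of the 12 had under 10 counts, after rounding, in some ‘Muscat Hamburg’ library.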
